A study of Mus musculus with 2 samples.

Results

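The genes described here are tumor necrosis factor (Tnf), its receptors Tnfrsf1a and Tnfrsf1b, the NF-κB subunit genes Nfkb1, Nfkb2, Rela and Relb, and the induced inhibitors Tnfaip3, Nfkbia and Nfkbiz. They were chosen by gene symbol, and all 10 were found among the 24346 symbols of the expression values. The values come from bulk mRNA sequencing of dorsal skin wounds of 1-day-old C57BL/6J pups, harvested 24 h after injury. The genotypes were WT and PU.1_KO, called PU.1-/- here, with 1 library each and no other treatment. PU.1, the product of Spi1, is an ETS transcription factor needed to form blood cell lineages, and the PU.1-/- mouse is a whole-body knockout that lacks macrophages, neutrophils, mast cells and T cells. The methods describe incisional wounds in littermates, the submitters' design text calls the wounds excisional, and the number of pups in each library was not stated. Expression is given as FPKM, fragments counted for a gene per kilobase of its length and scaled to the depth of the library, so that levels can be set side by side between genes.

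TNF is a cytokine made as a membrane protein and released by shedding, and macrophages and mast cells are well-known sources of it. It binds a type 1 receptor (Tnfrsf1a), present on most cells, and a type 2 receptor (Tnfrsf1b), found mainly on leukocytes and endothelium. The type 1 receptor recruits adaptors and ubiquitin ligases that switch on the IκB kinase complex, which marks the inhibitor IκBα for destruction and frees NF-κB dimers to enter the nucleus. The inhibitors in turn are NF-κB target genes, so that the response limits itself, and in skin the same pathway is also driven by interleukin 1 and by Toll-like receptors.

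The knocked-out gene was examined first. Spi1, on chromosome 2 from 91082374 to 91115759 (RefSeq gene bounds on GRCm38, the assembly of mm10, as for the other genes), had 35.4 FPKM in WT against 1.45 FPKM in PU.1-/-, in the direction of the labels. All 10 macrophage markers were lower in the PU.1-/- library, with a summed level of 6.46 FPKM against 730 FPKM in WT, and Adgre1, C1qa, C1qb, C1qc and Tyrobp were listed at 0. Mast cell markers summed to 14.2 against 742 FPKM (7 of 8 at least 2-fold lower, with Mcpt4, Ms4a2 and Fcer1a listed at 0). Neutrophil markers summed to 3652 against 12489 FPKM (7 of 9 lower, with Csf3r, Ltf, Ngp and Retnlg listed at 0), and most of that remainder was S100a8 and S100a9, which keratinocytes also express. T cell markers were scarce in both libraries, at 4.43 and 1.20 FPKM in sum (3 of the 6 that reached 0.1 FPKM were lower), and Cd3e, Cd3d, Cd3g, Cd4 and Cd8a were listed at 0 in PU.1-/-. The summed markers of fibroblasts were at 119%, of keratinocytes at 114%, of endothelium at 113% and of skeletal muscle at 170% of WT. Xist was listed at 0 in WT and at 9.48 FPKM in PU.1-/-, and Ddx3y had 21.0 FPKM in WT and was listed at 0 in PU.1-/-, so that sex and genotype cannot be told apart. From the steps between low values, 1 FPKM over 1 kilobase was estimated to stand for 13.8 fragments in WT and 15.9 in PU.1-/-. With 1 library per genotype there is no spread between animals and no test was run. A gene was called lower or higher when the libraries differed 2-fold or more, with values below 0.1 FPKM raised to 0.1, and the intervals are exact binomial intervals at 95% on estimated reads, which cover counting error only.

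Promoter sequence was read for 7 of the 10 genes from RefSeq (GRCm38.p6), as 250 bases before and 50 after each start, and the table of windows used here held none for Nfkb1, Nfkbiz and Relb. Both strands were searched for the degenerate NF-κB consensus (the κB motif) and for GAGGAA, the core letters of sites that PU.1 and other ETS factors bind. The windows of the genes whose values differed most are given first, followed by those of inhibitor and subunit genes with κB matches. Capitals mark the matches, and a minus-strand match is printed as it reads on the gene's strand.
Tnf (chr17:35201958-35202257, minus strand): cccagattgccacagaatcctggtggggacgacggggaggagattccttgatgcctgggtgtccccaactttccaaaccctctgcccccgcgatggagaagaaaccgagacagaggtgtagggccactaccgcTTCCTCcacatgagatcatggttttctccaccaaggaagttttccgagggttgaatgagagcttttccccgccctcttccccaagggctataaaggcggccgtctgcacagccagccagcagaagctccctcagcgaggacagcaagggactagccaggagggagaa
Tnfrsf1b (chr4:145246821-145247120, minus strand): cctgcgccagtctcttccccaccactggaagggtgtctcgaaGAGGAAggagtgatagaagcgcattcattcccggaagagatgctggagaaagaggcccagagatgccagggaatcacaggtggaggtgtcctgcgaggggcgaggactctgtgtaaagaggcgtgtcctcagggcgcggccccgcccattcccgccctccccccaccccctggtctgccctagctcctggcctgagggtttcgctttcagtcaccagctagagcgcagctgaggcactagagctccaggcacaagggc
Tnfaip3 (chr10:19015361-19015660, minus strand): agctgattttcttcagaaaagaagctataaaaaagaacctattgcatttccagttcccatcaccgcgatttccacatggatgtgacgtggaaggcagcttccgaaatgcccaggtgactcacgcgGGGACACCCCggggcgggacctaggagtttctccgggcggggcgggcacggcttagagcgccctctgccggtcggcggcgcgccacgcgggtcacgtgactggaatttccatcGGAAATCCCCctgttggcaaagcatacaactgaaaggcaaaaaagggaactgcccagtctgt
Nfkbia (chr12:55492598-55492897, minus strand): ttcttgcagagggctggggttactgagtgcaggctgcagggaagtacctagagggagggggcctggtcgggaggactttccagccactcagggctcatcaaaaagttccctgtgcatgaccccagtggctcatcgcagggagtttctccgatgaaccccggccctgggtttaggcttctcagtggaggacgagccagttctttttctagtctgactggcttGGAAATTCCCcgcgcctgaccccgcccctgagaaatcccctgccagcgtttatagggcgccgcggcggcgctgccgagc
Nfkb2 (chr19:46304487-46304786, plus strand): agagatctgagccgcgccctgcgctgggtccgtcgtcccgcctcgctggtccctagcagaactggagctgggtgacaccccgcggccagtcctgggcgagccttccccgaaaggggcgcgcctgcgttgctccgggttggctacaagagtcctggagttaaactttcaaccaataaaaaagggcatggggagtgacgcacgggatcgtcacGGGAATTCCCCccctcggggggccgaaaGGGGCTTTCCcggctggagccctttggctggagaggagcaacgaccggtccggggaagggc
The κB motif matched in Nfkbia (GGAAATTCCC, first base 29 bases before the start), in Tnfaip3 (GGAAATCCCC, 12 bases before the start, and GGGACACCCC, 125 bases before) and in Nfkb2, where GGGAATTCCC and GGGGCTTTCC lay 39 and 11 bases before the start. In Nfkb2 the match at 39 overlaps a further match shifted by 1 base, and the windows of its 2 other start sites, not shown, overlap and share 1 match, GGGACTTTCC. The window of the second start site also holds GGAATGTCCC, a minus-strand match 236 bases before that start. Thus 3 of the 7 genes had a κB match, while 9.55% of 27025 genes with a RefSeq window had one. GAGGAA was present in Tnf, as TTCCTC 117 bases before the start, and in Tnfrsf1b, 208 bases before it, and in none of the windows of the other 5 genes. This made 2 of the 7 genes, near the share of 31.3% over all genes. These matches are letters in a window and were not tested for binding.

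The ligand and the type 2 receptor were the genes past 2-fold between the wounds. Tnf, on chromosome 17 from 35199367 to 35202007, had 6.40 FPKM in WT against 1.31 FPKM in PU.1-/-, about 127 and 30 estimated reads. This was a 4.90-fold lower level in PU.1-/- (interval 3.25 to 7.50), or 20.4% of WT. Tnfrsf1b, on chromosome 4 from 145212368 to 145246870, had 11.2 FPKM in WT against 3.29 FPKM in PU.1-/-, a 3.41-fold lower level (interval 2.89 to 4.04), or 29.3% of WT. Both intervals lay beyond 2-fold. Among all symbols of at least 0.1 FPKM in 1 or both libraries 6.49% were lower by this rule and 3.47% higher. Among the 9762 symbols of at least 5 FPKM in 1 or both libraries 3.13% were lower and 1.0% higher. Each of the 10 genes reached 5 FPKM in WT, but Tnf and Tnfrsf1b did not in PU.1-/-, so they entered that group through WT only. Of the 10 genes 2 were lower and none was higher. Both remained above 0 in a library in which 5 macrophage markers were listed at 0. The macrophage markers that also remained above 0 were Cd68 at 4.12 FPKM, Mpeg1 at 0.714, Csf1r at 0.684, Lyz2 at 0.520 and Mrc1 at 0.417. The log2 ratios were −2.29 for Tnf and −1.77 for Tnfrsf1b. Both were closer to 0 than the medians of −7.18 over the 10 macrophage markers and of −6.92 over the mast cell markers. In these medians values at 0 count as 0.1 FPKM. The median was −3.35 over the neutrophil markers, and over the scarce T cell markers it was −1.20, closer to 0 than the values of both genes. The part of the marker difference in these values was not tested, and in bulk tissue fewer cells of a type and less RNA per cell cannot be told apart.

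**Figure D1:**
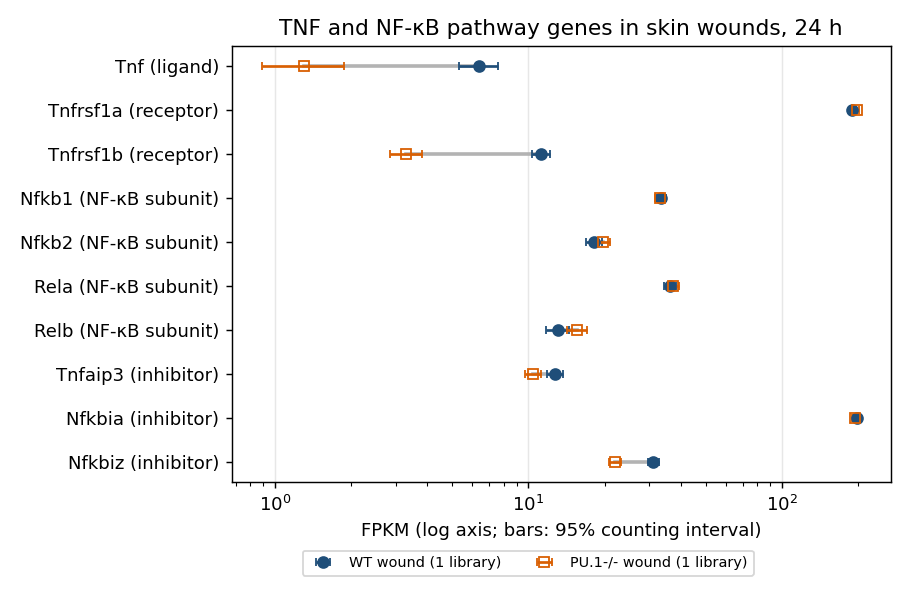
Expression of the 10 genes in FPKM (log axis) in the WT (filled circles) and PU.1-/- (open squares) wound, 1 library each, with 95% counting intervals. Tnf and Tnfrsf1b are shifted to the left in PU.1-/-, from 6.40 to 1.31 and from 11.2 to 3.29 FPKM, while the symbols of the subunits nearly coincide.

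The type 1 receptor did not share this difference. Tnfrsf1a, on chromosome 6 from 125349723 to 125362483, had 188 FPKM in WT against 197 FPKM in PU.1-/-, at a ratio of PU.1-/- over WT of 1.05 (interval 1.01 to 1.09). It was among the most abundant transcripts of both wounds, at percentile 97.0 and 97.3 of the symbols of at least 0.1 FPKM. Tnfrsf1b stood at percentile 60.2 in WT and 36.2 in PU.1-/-. The FPKM of Tnfrsf1a was therefore 16.8 times that of Tnfrsf1b in the WT wound and 59.9 times in the PU.1-/- wound. Relative to the ligand, Tnfrsf1a was 29.4 times as abundant as Tnf in WT and 151 times in PU.1-/-.

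The NF-κB subunit genes were expressed at close to the same level in both wounds. Rela, on chromosome 19 from 5637442 to 5648134, encodes the main activating subunit and had 36.2 FPKM in WT against 37.3 FPKM in PU.1-/-, at a ratio of 1.03 (interval 0.954 to 1.11). Nfkb1, on chromosome 3 from 135584655 to 135691969, which encodes a precursor processed to the partner of RelA, had 33.4 and 33.0 FPKM, a ratio of 0.989 (0.928 to 1.05). Counting error alone covers no difference for either gene.
Nfkb2, on chromosome 19 from 46300994 to 46312400, encodes the precursor of the alternative pathway and had 18.2 FPKM in WT against 19.8 FPKM in PU.1-/-, at a ratio of 1.09 (0.985 to 1.20). Relb, on chromosome 7 from 19606217 to 19629438, encodes the subunit that pairs with its product. Relb had 13.1 and 15.6 FPKM and the largest ratio of the 10 genes toward PU.1-/-, 1.19 (1.04 to 1.37). Its interval excluded 1 by counting error, but the ratio was far below 2. Together with Rel, the leukocyte-rich subunit, which had 4.67 and 4.97 FPKM, the 5 subunit genes summed to 105 FPKM in WT against 111 FPKM in PU.1-/-. Their proportions were similar, with Rela at 34.3% and 33.7%, Nfkb1 at 31.6% and 29.8%, Nfkb2 at 17.2% and 17.9%, Relb at 12.4% and 14.1% and Rel at 4.43% and 4.49% of the sum.

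The inhibitors spanned a wider range. Nfkbia, on chromosome 12 from 55489409 to 55492647, encodes IκBα, and with 198 FPKM in WT against 195 FPKM in PU.1-/- its ratio was 0.985 (interval 0.943 to 1.03). It was 5.46 times as abundant as Rela in WT and 5.23 times in PU.1-/-. Tnfaip3, on chromosome 10 from 19000910 to 19015410, encodes a ubiquitin-editing enzyme that takes apart the signaling complex of the type 1 receptor. It had 12.7 FPKM in WT against 10.5 FPKM in PU.1-/-, at a ratio of 0.822 (0.740 to 0.912). Nfkbiz, on chromosome 16 from 55811375 to 55838954, encodes IκBζ, a nuclear protein that can restrain NF-κB and also acts as a coactivator of late target genes. It had 31.1 FPKM in WT against 22.0 FPKM in PU.1-/-, at a ratio of 0.708 (0.659 to 0.761). Nfkbiz was thus the gene with the largest difference among the 8 that did not reach 2-fold. The intervals of Tnfaip3 and Nfkbiz lay below 1, and neither ratio reached the 2-fold threshold. All 8 were within 1.5-fold, as were 90.4% of the symbols of at least 5 FPKM.

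The order of the levels was nearly the same in both wounds. In WT it ran from Nfkbia and Tnfrsf1a through Rela, Nfkb1, Nfkbiz, Nfkb2, Relb, Tnfaip3 and Tnfrsf1b to Tnf. In PU.1-/- only Nfkbia and Tnfrsf1a changed places, and the 95% counting intervals of these neighbours overlapped in both libraries. Overlap was also seen in WT between Rela and Nfkb1, Nfkb1 and Nfkbiz, Relb and Tnfaip3, and Tnfaip3 and Tnfrsf1b, and in PU.1-/- between Nfkbiz and Nfkb2. Tnf moved from percentile 47.1 to 24.6 and Nfkbiz from 81.9 to 75.7, while Relb moved from 63.7 to 68.2.

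**Figure D2:**
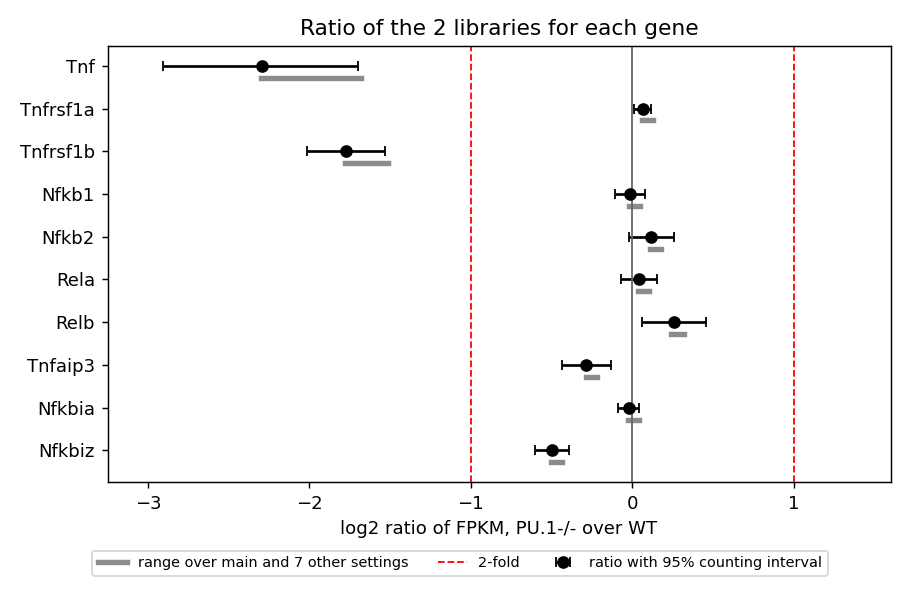
The log2 ratio of FPKM (PU.1-/- over WT) of each gene, with its 95% counting interval (black) and the range of the ratio over the reported and 7 other settings of scaling and low values (grey bars). Tnf and Tnfrsf1b lie beyond the 2-fold line (dashed red), and the other 8 genes lie between −0.50 and 0.26.

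The genes around these members were described by lists of pathway components. Of the 4 genes of TNF shedding none was past 2-fold. Adam17, the protease that releases TNF, had 20.3 FPKM in WT against 18.9 FPKM in PU.1-/-, and Timp3, its inhibitor and the most abundant of the list, had 35.0 and 41.5 FPKM. Of the 17 genes of the TNF receptor complex 1 was lower, near the share of 6.49% lower over all symbols of at least 0.1 FPKM, and 16 were within 1.5-fold, with a median log2 ratio of −0.09. The lower gene was Traf1, an NF-κB-induced adaptor of the type 2 receptor, with 2.76 FPKM in WT against 1.07 FPKM in PU.1-/- (2.58-fold, interval 1.73 to 3.94). Rbck1, a subunit of the linear ubiquitin ligase and the most abundant of that list, had 27.0 and 25.3 FPKM.
None of the 9 genes of IκB kinases and their upstream kinases was past 2-fold, and their log2 ratios lay between −0.08 and 0.46. The most abundant, Tab2, an adaptor of the kinase TAK1, had 44.0 and 46.3 FPKM. The largest log2 ratio of this list was that of Map3k14, the kinase of the alternative pathway, with 3.60 FPKM in WT against 4.93 FPKM in PU.1-/-. Among 7 other Rel and IκB genes only Nfkbid was lower, beside 6.49% of all symbols of at least 0.1 FPKM. Nfkbid encodes a further nuclear IκB protein and had 2.56 and 0.906 FPKM (2.83-fold, interval 1.80 to 4.72). With a pseudocount of 1 FPKM neither Traf1 nor Nfkbid was past 2-fold. Bcl3, a nuclear IκB protein as well, had 38.2 FPKM in WT against 47.2 FPKM in PU.1-/-, at a ratio of 1.24 (1.13 to 1.35). The FPKM of Bcl3 was 1.23 times that of Nfkbiz in WT and 2.14 times in PU.1-/-.

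Of 14 other negative regulators of the pathway that reached 0.1 FPKM, 1 was lower and 13 were within 1.5-fold. This was near the share of 6.49% lower over all symbols at that level. The lower one was Tnfaip8l2, a regulator of leukocyte activation, with 6.10 FPKM in WT against 0.0690 FPKM in PU.1-/-, 61.0-fold lower with the PU.1-/- value raised to 0.1 FPKM and 88.4-fold as deposited, with about 1 read in PU.1-/- (interval 15.6 to 3584). The most abundant was the ubiquitin ligase partner Rnf11, with 97.2 and 104 FPKM. Zc3h12a, an RNase that degrades cytokine mRNA, had 33.2 FPKM in WT against 24.6 FPKM in PU.1-/-, at a ratio of 0.742 (0.682 to 0.809). Zfp36, which also destabilizes Tnf mRNA, had 73.2 and 84.1 FPKM.

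Other ligands of the TNF superfamily were scarce. Of 17 listed, 10 reached 0.1 FPKM and 2 of these were lower, beside 6.49% of all symbols at that level. Tnfsf14 had 2.69 FPKM in WT against 0.0757 FPKM in PU.1-/-, 26.9-fold lower with the PU.1-/- value raised to 0.1 FPKM and 35.6-fold as deposited, with about 2 reads in PU.1-/- (interval 9.29 to 296). Ltb, the lymphotoxin beta gene, had 1.22 and 0.355 FPKM, 3.45-fold lower (1.29 to 12.8). Lta, the closest relative of Tnf, was listed at 0 in both libraries, and Tnfsf12, the most abundant of the list, had 4.71 and 4.61 FPKM.
Of 23 other receptors 4 were lower and 1 was higher, beside 6.49% lower and 3.47% higher over all symbols. Relt had 2.76 FPKM in WT against 0.577 FPKM in PU.1-/- (4.79-fold, interval 3.07 to 7.89), and Tnfrsf9, a receptor of activated leukocytes, had 3.05 and 1.41 FPKM (2.16-fold, 1.46 to 3.17). With a pseudocount of 1 FPKM neither Ltb nor Tnfrsf9 was past 2-fold. Tnfrsf11a, Tnfrsf13b and Tnfrsf25, the other called genes, stayed below 2 FPKM in both libraries, and the intervals of the last pair included 1. Tnfrsf12a, the receptor of Tnfsf12 and the most abundant of the list, had 102 and 101 FPKM, and the lymphotoxin beta receptor gene Ltbr had 67.0 and 63.7 FPKM. The 10 genes and these lists without the target genes summed to nearly the same level in both wounds, at 97.5% and 99.0% of WT. Nfkbia and Tnfrsf1a make up most of the sum of the 10 genes, which hides the lower Tnf and Tnfrsf1b. The list of NF-κB target genes, in which Saa3 is the largest part, summed to 64.9% of WT.

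Distances of log2 ratios over the 2 libraries were taken to 101 genes of the pathway lists that reached 2 FPKM. The 10 members were left out of these 101. Nearest to Tnf among the 101 were Relt (0.03 apart), Cxcl2 (0.40) and Nfkbid (0.79). Nearest to Tnfrsf1b were Cxcl2 (0.12), Nfkbid (0.27) and Traf1 (0.40). Among the members left out, Tnfrsf1b (log2 ratio −1.77) was closer to Tnf (−2.29) than Nfkbid was (−1.50).

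**Figure D3:**
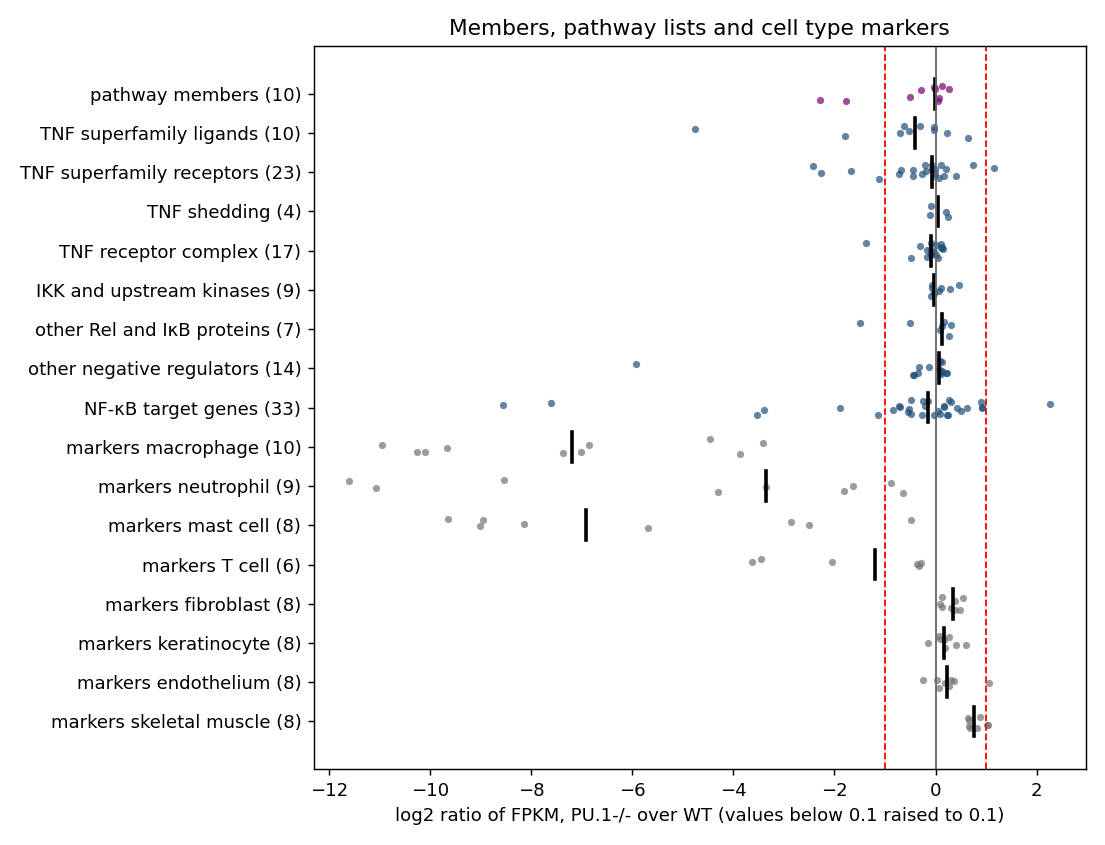
The log2 ratio of FPKM (PU.1-/- over WT) of each gene of at least 0.1 FPKM (points) and the median (black bars) for the 10 pathway genes, the pathway lists and the markers of cell types, with the number of genes in parentheses. The medians of the pathway lists lie between −0.41 (TNF superfamily ligands) and 0.13 (other Rel and IκB proteins). Of their 117 genes 15 lie below and 2 above the 2-fold lines (dashed red). Over all symbols of at least 0.1 FPKM 6.49% were lower and 3.47% higher. The markers of macrophages and mast cells centre at −7.18 and −6.92.

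Known NF-κB target genes went different ways. Of 33 genes 6 were lower and 1 was higher, beside 6.49% and 3.47% of all symbols of at least 0.1 FPKM, and the median log2 ratio was −0.14, against −0.01 over all symbols of at least 0.1 FPKM. Il1b, the cytokine interleukin 1β, had 63.9 FPKM in WT against 0.169 FPKM in PU.1-/-, 379-fold lower with about 3 reads left (interval 133 to 1897). Bcl2a1b, a survival gene of leukocytes, had 19.5 FPKM in WT and was listed at 0 in PU.1-/-, at least 51.1-fold lower by its counting interval (63.6-fold against a floor of 3 reads in that library). Its near-identical copy Bcl2a1d had 2.47 and 0.215 FPKM, and reads could be shared between these copies, so both values are uncertain. Nos2, the inducible nitric oxide synthase, had 2.78 and 0.265 FPKM (10.5-fold, interval 6.25 to 18.2).
The chemokine gene Cxcl2 had 180 FPKM in WT against 48.4 FPKM in PU.1-/- (3.72-fold, interval 3.41 to 4.05), whereas its neighbor in function Cxcl1 had 187 and 208 FPKM (ratio 1.12, 1.05 to 1.18). Cxcl1 was thus 1.04 times as abundant as Cxcl2 in WT and 4.31 times in PU.1-/-. Saa3, an acute-phase gene and the most abundant target, had 2318 and 1059 FPKM (2.19-fold, 2.12 to 2.26). Cxcl10, which interferons also induce, was the higher gene, with 5.20 FPKM in WT against 25.1 FPKM in PU.1-/- (4.83-fold, 3.70 to 6.42).

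Some targets that cells other than leukocytes also express were picked with their values in view. They differed in direction, and none of those picked reached 2-fold. They do not stand for all such targets. The paper names Saa3 among genes that wound fibroblasts express. Saa3 was past 2-fold, as given above. The adhesion genes Icam1 and Sele had 30.3 and 8.26 FPKM in WT and 56.8 and 15.6 FPKM in PU.1-/-. Their ratios were 1.87 (interval 1.73 to 2.02) for Icam1 and 1.88 (1.64 to 2.16) for Sele. Selp, a further adhesion gene, had 14.1 and 21.6 FPKM (ratio 1.53, 1.39 to 1.69), whereas Vcam1 had 4.70 and 3.36 FPKM (0.716, 0.581 to 0.877). The endothelial markers had a median log2 ratio of 0.22 and 1 of 8 was past 2-fold, and their part in the values of Icam1, Sele and Selp was not tested. Ccl2 and Il6, made by fibroblasts as well as macrophages, had 444 and 70.3 FPKM in WT and 269 and 50.4 FPKM in PU.1-/-.

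**Figure D4:**
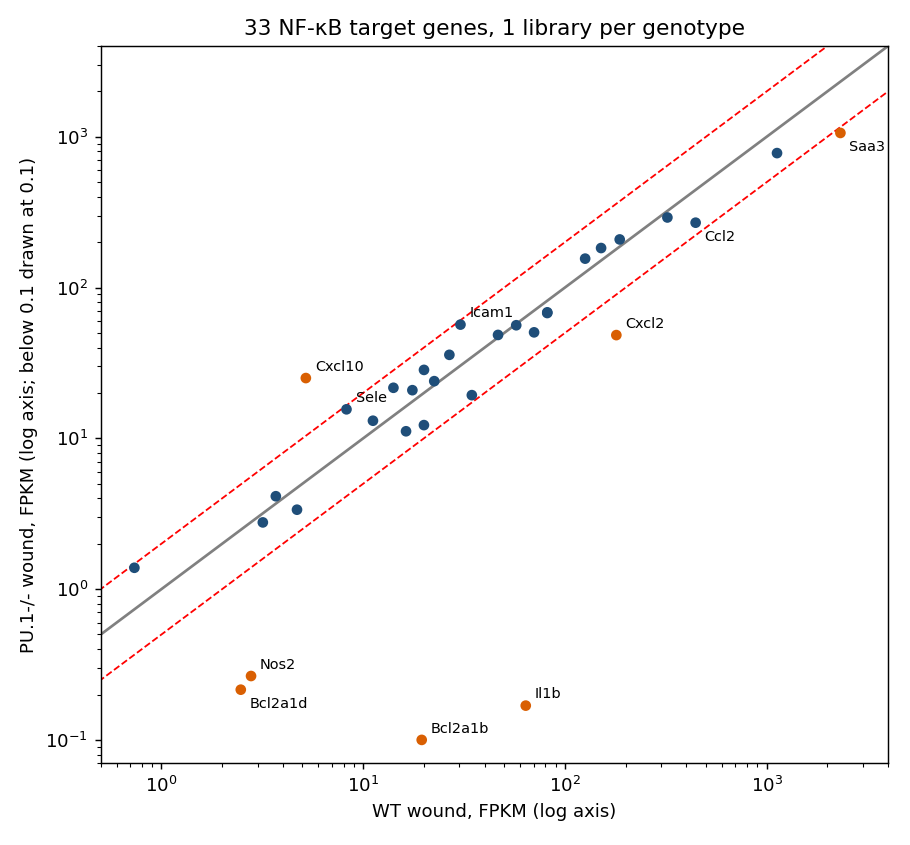
FPKM of the 33 NF-κB target genes in the WT (x axis) and PU.1-/- (y axis) wound, both log axes, with equality (grey) and 2-fold (dashed red) lines. Orange points are past 2-fold, with Il1b and Bcl2a1b far below the lines and Cxcl10 above them, and the blue points, Icam1, Sele and Ccl2 among them, lie between the lines.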

How the data were processed

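RNA of skin wounds was sequenced by the authors with a stranded mRNA kit and single-end reads, mapped to mm10, and deposited as FPKM values from Cuffnorm. The submitters' processing notes name TopHat2 2.1.1, Bowtie2 2.2.8, SAMtools 0.1.18 and Cuffdiff 2.2.1. For the annotation, any filter and the counting of strand the sources used here say nothing.
The deposited FPKM values were used without further scaling, values below 0.1 were raised to 0.1 and a ratio of at least 2 was called. Reads were estimated from FPKM and the longest GENCODE M21 transcript linked to RefSeq, less 200 nt, found for 94.5% of symbols. The depth of the PU.1-/- library was set by 68 low single-transcript genes of at least 1500 nt. In these, FPKM times this length lay near its mode, and the median was taken. One read was worth 1.15 times more FPKM in WT, the ratio shared by 459 low symbols, and this ratio gave the WT depth. Estimates are uncertain where a gene has several transcripts.
Groups were taken from the genotype labels, and no test was possible with 1 library each. The members and lists were chosen with earlier results of these data known. Genes named outside the members were list genes past 2-fold with at least 2 FPKM in 1 library, the most abundant of each list, and the nearest in log2 ratio. Adam17, Map3k14, Zc3h12a, Zfp36, Ltb, Lta, Ltbr, Rel, Cxcl1, Icam1, Sele, Selp, Vcam1, Ccl2, Il6, Xist, Ddx3y, the RANK genes and called genes of lower level were picked with their values in view. The marker genes Ly6g and Trac were not among the symbols. Alternatives of low values, scaling, fold and filter were computed, and the functions were checked on simulated libraries. Scripts ran under Python 3.11.15 (scipy 1.17.1, numpy 2.4.6, matplotlib 3.10.9, pandas 2.3.3).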

Additional observations from a re-analysis of the deposited data

How the results depend on the processing

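The calls of the 10 genes were the same under each of the 11 alternatives of low values, scaling, fold and filter, with 2 lower and none higher. The log2 ratio of Tnf ranged from −2.30 to −1.68 and that of Tnfrsf1b from −1.78 to −1.51, in each case smallest with a pseudocount of 1 FPKM, the setting that shrinks low values. Nfkb1 (−0.02 to 0.05) and Nfkbia (−0.03 to 0.04) changed sign with the scaling. The scalings moved all genes by at most 0.06 on the log2 scale. With reads estimated from the shortest transcript in place of the longest, the interval of each of the 10 genes lay on the same side of 1, or included it, as before, and those of Tnf and Tnfrsf1b stayed beyond 2-fold.
Counts over all symbols depended on low values. The 1057 lower and 565 higher symbols became 463 and 164 with a floor of 1 FPKM, 461 and 89 with a pseudocount of 1 FPKM, 589 and 226 with a filter of 1 FPKM, and 306 and 98 with a filter of 5 FPKM. They became 1867 and 1410 at 1.5-fold and 681 and 150 at 3-fold.
The TNF superfamily ligands had 1 lower gene with a floor or a pseudocount of 1 FPKM, 4 at 1.5-fold and 0 with a filter of 5 FPKM, and 1 higher gene at 1.5-fold. The receptors had 2 lower genes with a floor of 1 FPKM, 1 with a pseudocount of 1 FPKM and 0 with a filter of 5 FPKM. Their higher gene was lost (0) with a floor of 1 FPKM, either pseudocount, a filter of 1 or 5 FPKM and at 3-fold, and 2 were higher at 1.5-fold. The lower gene of the receptor complex (Traf1) and that of the other Rel and IκB genes (Nfkbid) were lost (0) with a pseudocount of 1 FPKM, a filter of 5 FPKM and at 3-fold. The NF-κB target genes had 5 higher genes at 1.5-fold. The other list counts stayed within 1.5 times. No paired analysis was possible because each genotype has 1 library. Depth limits the genes of a few reads, and the spread between animals was not measured.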

Other observations

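The RANK system, a further ligand and receptor set of the TNF superfamily that acts in hair follicle and bone biology, was measured in the same libraries. Its receptor gene Tnfrsf11a had 1.5 FPKM in WT against 0.469 FPKM in PU.1-/-, 3.19-fold lower (counting interval 2.16 to 4.81), a call that ended with a floor or a pseudocount of 1 FPKM. The ligand gene Tnfsf11 had 3.06 FPKM in WT against 3.56 FPKM in PU.1-/-, at a ratio of 1.16 (0.873 to 1.56). The decoy receptor gene Tnfrsf11b had 4.31 and 2.69 FPKM, a ratio of 0.625 (0.486 to 0.802) that did not reach 2-fold. These genes were chosen after their values were seen.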
